A study of Mus musculus with 9 samples.

Results

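Cholesterol synthesis in the liver was followed here through 7 genes chosen by symbol, Srebf2, Hmgcs1, Idi1, Fdps, Sqle, Lss and Cyp51, out of 21873 genes in the liver mRNA table. All 7 were among the 14094 genes tested. The mice were male C57BL/6, 8 weeks old at the start, with 3 mice in each of 3 groups. In the TAA group, thioacetamide, a hepatotoxin that is bioactivated in hepatocytes, was given intraperitoneally at 200 mg/kg, 1 injection every 3 days over 8 weeks. The control group was given normal saline in its place, and both groups were collected 72 h after their last injection. The recovery group had the TAA course and then 8 weeks with no injection, so that all its mice had been exposed to TAA and were 8 weeks older at collection than the other mice. A saline group of that age was not analysed here, and time since TAA and age cannot be told apart in recovery livers. Whole liver was sequenced.

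Cholesterol is built from acetyl-CoA in a chain of enzymes that runs through HMG-CoA, mevalonate, isoprenoid phosphates, squalene and lanosterol. The transcription factor SREBP-2, the product of Srebf2, is held in the endoplasmic reticulum by its escort SCAP and the INSIG proteins when sterols are plentiful. When sterols fall, it is carried to the Golgi, cut by proteases, and enters the nucleus, where it binds sterol regulatory elements in the promoters of the enzyme genes, usually beside sites for NF-Y and SP1. Control of SREBP-2 is largely at the level of the protein. In the liver the pathway supplies membranes, lipoproteins and bile acids.

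The promoters of Hmgcs1, Srebf2 and Idi1 are shown because the first of them holds a full match to the sterol regulatory element pattern searched, the second a shorter core of it, and the third none. The windows are those of RefSeq in GRCm38.p6, 300 bases each, and were built on the RefSeq start of a gene, which differs from the start of the mm10 gene coordinates given further on. Capitals mark TCACCCCA with or without a final C, and the NF-Y box CCAAT, which reads ATTGG where it lies on the other strand.
Hmgcs1 promoter window, chr13:119690101-119690400, plus strand: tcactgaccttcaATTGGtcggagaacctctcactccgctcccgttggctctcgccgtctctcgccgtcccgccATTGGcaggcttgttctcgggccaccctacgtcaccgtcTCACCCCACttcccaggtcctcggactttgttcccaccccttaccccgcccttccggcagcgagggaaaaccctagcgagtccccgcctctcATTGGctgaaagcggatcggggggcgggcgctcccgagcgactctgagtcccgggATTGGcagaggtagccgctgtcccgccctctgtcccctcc
Srebf2 promoter window, chr15:82147019-82147318, plus strand: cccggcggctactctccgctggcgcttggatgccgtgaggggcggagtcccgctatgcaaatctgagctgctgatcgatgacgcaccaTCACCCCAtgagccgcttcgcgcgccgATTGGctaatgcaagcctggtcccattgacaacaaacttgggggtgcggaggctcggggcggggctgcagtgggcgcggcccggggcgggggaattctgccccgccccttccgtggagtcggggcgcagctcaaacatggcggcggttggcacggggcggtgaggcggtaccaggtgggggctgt
Idi1 promoter window, chr13:8885356-8885655, plus strand: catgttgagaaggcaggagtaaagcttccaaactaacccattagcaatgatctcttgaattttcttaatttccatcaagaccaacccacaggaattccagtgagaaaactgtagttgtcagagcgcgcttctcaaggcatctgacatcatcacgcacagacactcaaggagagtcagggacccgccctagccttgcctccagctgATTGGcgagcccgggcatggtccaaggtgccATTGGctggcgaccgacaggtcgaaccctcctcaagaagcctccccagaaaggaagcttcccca

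RefSeq windows were found for 5 of the 7 genes (Srebf2, Hmgcs1, Idi1, Lss and Cyp51). Matches were searched on both strands, and positions are counted from the RefSeq start of the window. The Hmgcs1 window holds TCACCCCAC, a match to TCACNCCAC, at -137, and 4 CCAAT boxes at -237, -176, -45 and 11. TCACNCCAC was found in 1 of the 5 windows and in 1.24% of all 32851 promoter windows. The shorter TCACCCCA, which was chosen after the windows had been read, lies inside the Hmgcs1 match and at -162 in the Srebf2 window, upstream of a CCAAT box at -135, and is present in 1.56% of all windows. CCAAT was found in 5 of the 5 windows, against 37.4% of all windows, and the GC box GGGCGG also in 5 of 5, against 35.7%. The E-box CACGTG was in 0 of 5, against 7.15%. Of 12 other enzymes of the pathway 11 had at least 1 window (Pmvk had 2 and Dhcr7 3), and in any window of the gene CCAAT and GGGCGG were each present for 10 of the 11, CACGTG for 3 and TCACNCCAC for 0. These are matches of letters, and no binding was measured.

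The libraries held an estimated 26.9 to 40.85 M fragments each. The authors deposited FPKM (fragments per kilobase of gene and per M mapped fragments), which are per length and so allow levels of different genes to be compared. For comparisons between libraries, each was scaled by a median-of-ratios factor, which was 0.827 to 0.878 in control livers, 1.29 to 1.38 in TAA livers and 0.893 to 0.907 in recovery livers, and levels below are these scaled FPKM. Without the scaling the median gene was 0.63 higher in TAA livers than in control livers on the log2 scale, and all differences below are relative to the scaled median. Groups were compared with limma on log2(scaled FPKM + 0.1), and a gene was called at an adjusted p under 0.05 (Benjamini-Hochberg over all tested genes) where it also differed at least 2-fold. The p-values weigh the difference between groups against the spread between the 3 mice of a group. limma moderates that spread with values of all tested genes.

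Hepatocyte markers were checked against the label of liver and were high in every library. Their summed scaled FPKM over 8 genes was 38380 to 42329 in control livers, 22455 to 29599 in TAA livers and 47304 to 49912 in recovery livers. In the same order, 6 cholangiocyte markers summed to 15.7 to 21.0, 295 to 443 and 27.9 to 38.4, and 6 markers of stellate cells or myofibroblasts to 13.4 to 14.0, 154 to 221 and 12.3 to 20.0. No marker of these 3 lists was at 0 throughout a group. On this scale the markers moved with the groups, and the lower hepatocyte sums of TAA livers depend on the scaling. The part of these markers in the results below was not tested. In whole liver, fewer cells of a type and less RNA per cell cannot be told apart. TAA 3 stood apart by skeletal muscle genes, with 36.6 summed over 6 genes against 0.209 and 0.389 in the other TAA libraries, so results for the TAA group are also given without it.

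In TAA livers, 6 of the 7 genes rose, all of them enzymes, between 2.29-fold for Cyp51 and 4.65-fold for Fdps. Srebf2 itself was not called. Of all tested genes, 17.0% were called higher in this comparison and 25.0% in either direction. The median log2 difference was 1.39 over the 7 genes and 0.02 over all tested genes, the latter largely set by the scaling. The 3 libraries of the TAA group lay above all 3 control libraries for the same 6 genes, as they did for 32.6% of tested genes.

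**Figure D1:**
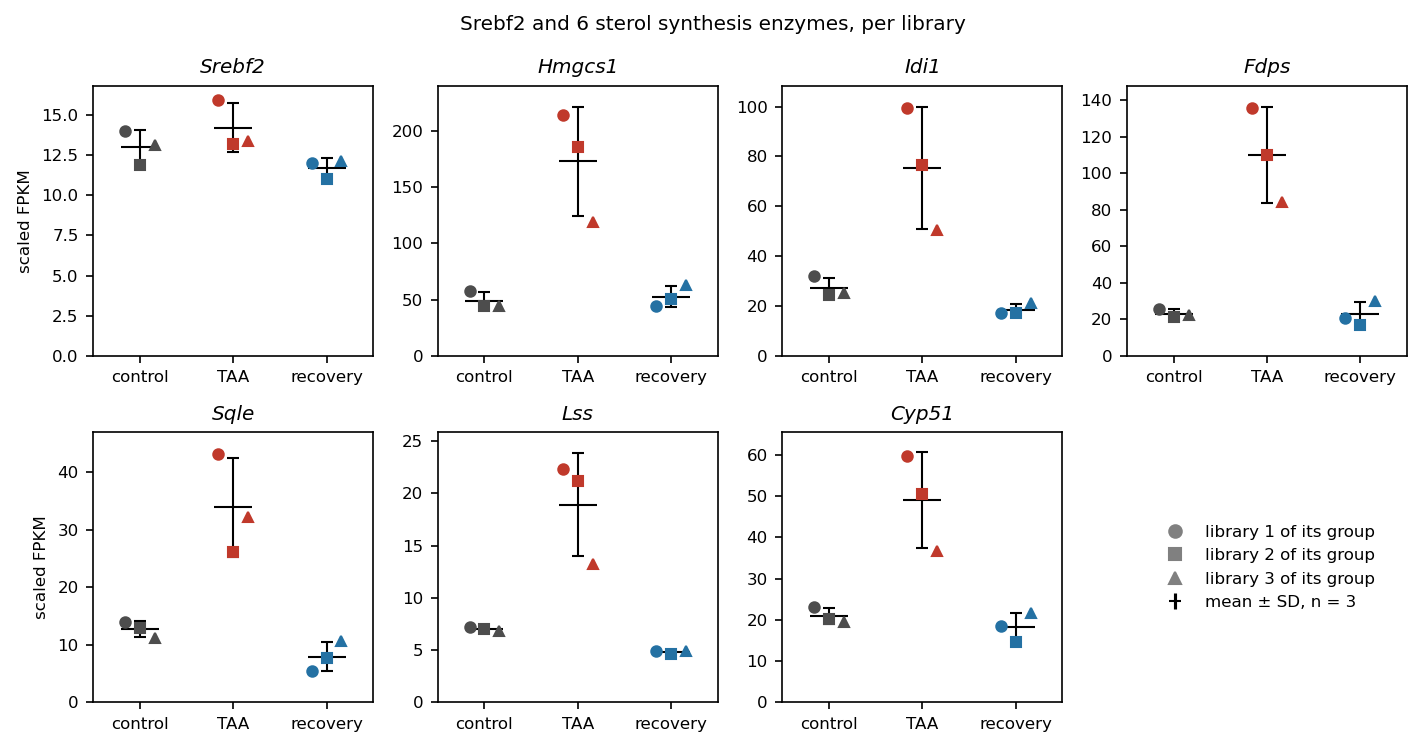
Scaled FPKM (vertical axis, starting at 0) of the 7 genes in each library of the control, TAA and recovery groups. Points are libraries, shaped by replicate number, and bars show mean ± SD (n = 3). The 6 enzymes have all 3 TAA libraries above all others, while Srebf2 stays between 11.0 and 15.9 in all 9.

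Srebf2 (chr15:82147181-82205379, plus strand, mm10) encodes the regulator. Its level was 14.0, 11.9 and 13.1 in control 1 to 3, 15.9, 13.2 and 13.4 in TAA 1 to 3, and 12.0, 11.0 and 12.1 in recovery 1 to 3. TAA and control libraries overlapped, and the log2 difference was 0.12 (SE 0.11, adjusted p = 0.378, 95% interval -0.13 to 0.38). It passed the adjusted p at 0.76 with FPKM as deposited (adjusted p = 3.94e-04) and at 0.35 after quantile normalization (adjusted p = 0.0273), both under a fold change of 2. The recovery libraries were all below the TAA libraries, by a log2 difference of -0.27 (SE 0.10, adjusted p = 0.0607) that was -0.83 with FPKM as deposited (adjusted p = 2.38e-04) and -0.47 after quantile normalization (adjusted p = 0.00847). They overlapped with the control libraries at -0.15 (SE 0.09, adjusted p = 0.358). The gene also carries Mir33, a microRNA gene that lies within it on the same strand.

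Hmgcs1 (chr13:119690379-119708260, plus strand) encodes the cytosolic HMG-CoA synthase, the earliest enzyme of the chain among the 7. It had the highest level of the 7 genes in all 9 libraries. The level was 57.9, 44.6 and 44.8 in control livers, 214, 186 and 119 in TAA livers, and 44.2, 51.0 and 63.1 in recovery livers. The lowest TAA library was above the highest of the other 6, and control and recovery overlapped. Hmgcs1 rose with TAA by 1.78 on the log2 scale (SE 0.22, adjusted p = 4.03e-04) and fell by 1.68 from TAA to recovery (SE 0.22, adjusted p = 6.01e-04). Recovery and control differed by 0.10 (SE 0.16, adjusted p = 0.757), with an interval from -0.29 to 0.48.

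Idi1 (chr13:8885501-8892451, plus strand) encodes the isomerase that makes dimethylallyl from isopentenyl diphosphate. Its level was 32.0, 24.6 and 25.3 in control livers, 99.3, 76.7 and 50.3 in TAA livers, and 17.2, 17.2 and 21.2 in recovery livers. No 2 groups overlapped. The log2 difference was 1.42 between TAA and control (SE 0.24, adjusted p = 0.00180) and -1.97 between recovery and TAA (SE 0.23, adjusted p = 3.12e-04). All recovery libraries were below all control libraries, at a log2 difference of -0.55 that missed the threshold (SE 0.14, adjusted p = 0.0835). The neighbouring paralog Idi2 was listed at 0 in all 9 libraries.

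Fdps (chr3:89093588-89101959, minus strand) encodes farnesyl diphosphate synthase, whose product also feeds the non-sterol isoprenoids. It had the largest TAA difference of the 7. The level was 25.7, 21.4 and 22.6 in control livers, 136, 110 and 84.1 in TAA livers, and 21.0, 17.1 and 30.1 in recovery livers. The log2 difference was 2.22 between TAA and control (SE 0.17, adjusted p = 4.89e-05) and -2.28 between recovery and TAA (SE 0.23, adjusted p = 1.76e-04). Recovery and control overlapped and differed by -0.06 (SE 0.20, adjusted p = 0.883, interval -0.55 to 0.42, and 0.01 with FPKM as deposited). In the control group Idi1 was above Fdps in each of the 3 libraries, and in TAA livers Fdps was above Idi1 in each of the 3.

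Sqle (chr15:59315077-59331192, plus strand) encodes squalene epoxidase, which adds the oxygen needed for ring closure and is a known rate-limiting step. Its level was 13.9, 12.9 and 11.2 in control livers, 43.2, 26.1 and 32.3 in TAA livers, and 5.49, 7.78 and 10.6 in recovery livers. The 3 groups were separate, with recovery lowest. Sqle rose with TAA by 1.39 on the log2 scale (SE 0.18, adjusted p = 5.57e-04) and fell by 2.10 from TAA to recovery (SE 0.26, adjusted p = 4.04e-04). The difference of recovery from control was -0.71 (SE 0.23, adjusted p = 0.144), with an interval from -1.27 to -0.15 before adjustment over genes.

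Lss (chr10:76531588-76557138, plus strand) encodes lanosterol synthase, which closes the sterol rings. It had the lowest level of the 7 genes in control and recovery libraries alike. The level was 7.22, 6.99 and 6.85 in control livers, 22.3, 21.2 and 13.2 in TAA livers, and 4.88, 4.63 and 4.88 in recovery livers. The spread within control and within recovery was small (SD 0.189 and 0.144), and the groups were separate. The log2 difference was 1.38 between TAA and control (SE 0.19, adjusted p = 7.53e-04), -1.92 between recovery and TAA (SE 0.19, adjusted p = 1.54e-04) and -0.54 between recovery and control (SE 0.08, adjusted p = 0.0312). The last passed the adjusted p but not the fold change of 2.

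Cyp51 (chr5:4081145-4104746, minus strand) encodes lanosterol 14-alpha-demethylase, the first step after ring closure. Its level was 23.1, 20.3 and 19.5 in control livers, 59.7, 50.6 and 36.7 in TAA livers, and 18.4, 14.6 and 21.7 in recovery livers. The TAA libraries were above all others, and recovery and control overlapped. The log2 difference was 1.19 between TAA and control (SE 0.17, adjusted p = 9.39e-04), the smallest of the 6 enzymes, -1.41 between recovery and TAA (SE 0.20, adjusted p = 8.51e-04) and -0.22 between recovery and control (SE 0.15, adjusted p = 0.440).

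From TAA to recovery, 6 of the 7 genes fell and Srebf2 was not called, against 14.3% of tested genes called lower and 21.4% in either direction. The recovery libraries lay below all TAA libraries for 7 of 7 genes, as for 31.0% of tested genes. The median log2 difference was -1.92 over the 7 genes and -0.01 over all tested genes, the latter again largely set by the scaling. This comparison shares the TAA libraries with the one above, so the fall is not a separate observation of the rise. Without TAA 3, the log2 differences of the 6 enzymes were 1.39 to 2.40 for TAA against control and -2.46 to -1.60 for recovery against TAA, and all 6 stayed called in both. FPKM as deposited and quantile normalization both gave larger differences for all 6, with 1.83 to 2.85 and -2.84 to -1.97 for FPKM as deposited and 1.56 to 2.81 and -2.83 to -1.82 after quantile normalization, in the same order of comparisons. Hmgcs1 moved most, from 1.78 with TAA to 2.64 after quantile normalization.

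Between recovery and control, 0 of the 7 genes were called by limma, against 0.993% of tested genes. Lss alone passed the adjusted p, against 1.38% of tested genes that passed lower, and 3 of 7 (Lss, Idi1 and Sqle) had an unadjusted p under 0.05, against 23.0% of tested genes. The same 3 had all recovery libraries below all control libraries, against 15.6% of tested genes. The adjusted p of Lss was 0.0960 with all 9 libraries in 1 fit and 0.0508 without the trend in eBayes. Leaving out single libraries gave 0.0610 to 0.118, the highest without recovery 2. In control livers the order of levels was Hmgcs1, Idi1, Fdps and Cyp51, then Srebf2 and Sqle, which changed places between libraries, and Lss. Neighbours from Idi1 to Cyp51 overlapped in their ranges there. The scaled FPKM summed over the 7 genes was 143 to 174 in control livers, 349 to 591 in TAA livers and 123 to 164 in recovery livers.

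Within each group, the 7 genes tended to be high in the same mouse. Control 1, TAA 1 and recovery 3 each had the highest level of their group for 7 of 7 genes. Among all tested genes these libraries were the highest of their group for 37.9%, 34.3% and 32.8%, and 3.91% of genes had all 3 together. TAA 3 was the lowest of its group for 5 of the 7 genes and TAA 2 for Srebf2 and Sqle. The ratio of highest to lowest library was at most 1.30 among the 7 genes in control livers and reached 1.97 for Idi1 and 1.80 for Hmgcs1 in TAA livers. In the recovery group it was 1.93 for Sqle and 1.76 for Fdps, above the 1.65 and 1.62 of the TAA group, but 1.05 for Lss. Pearson's r between pairs of the 7 genes, on deviations from group means over 9 libraries, was positive for 21 of 21 pairs, with a median of 0.714 and a range of 0.125 to 0.964. Control 1 had the lowest estimated depth of all libraries (26.9 M fragments). Its 5 endothelial markers summed to 31.3, against 53.9 and 55.2 in the other control libraries. All values of 1 library share its depth and scaling, so the shared order of the 7 genes is a description.

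**Figure D2:**
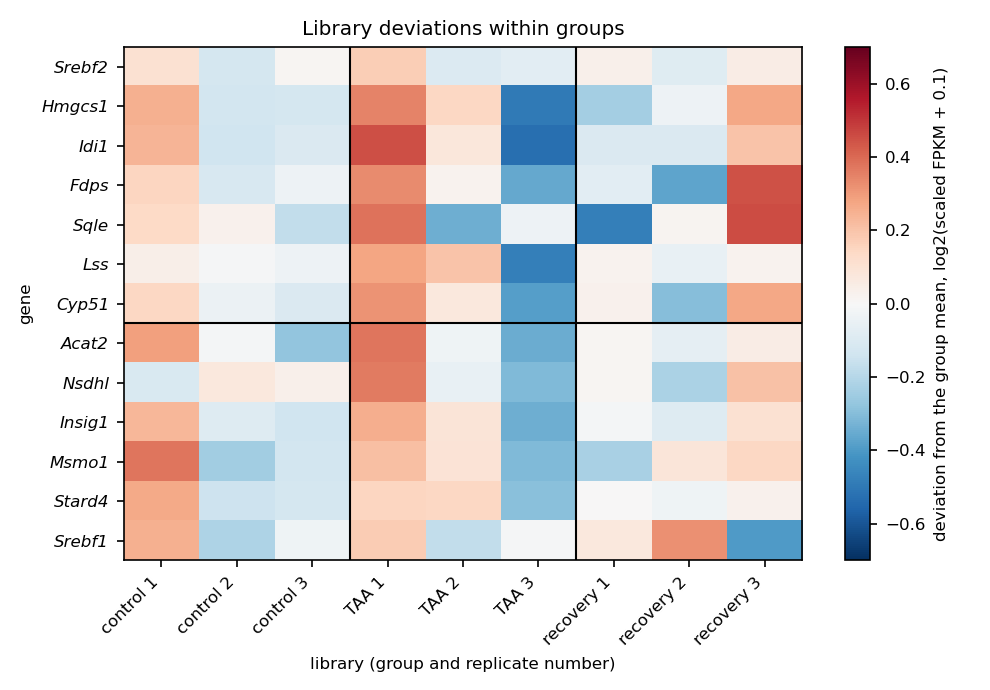
Deviation of log2(scaled FPKM + 0.1) from the group mean (color) for genes (rows) in the 9 libraries (columns). The 7 genes are above the horizontal line, with other genes chosen for display below it, and control 1, TAA 1 and recovery 3 are the highest of their group for all 7.

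The other 12 enzymes of the chain, fixed as a list, did not all follow the 7 genes. With TAA, 6 rose (Nsdhl, Dhcr7, Pmvk, Mvk, Mvd and Sc5d) and 2 fell (Tm7sf2 and Hsd17b7), and the other 4 were not called, against 8.02% of tested genes called lower. From TAA to recovery 9 fell (Mvd, Nsdhl, Dhcr7, Mvk, Msmo1, Acat2, Sc5d, Pmvk and Fdft1) and Tm7sf2 rose, against 7.12% of tested genes called higher. Their median log2 difference was 0.99 for TAA against control and -1.37 for recovery against TAA.

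The mevalonate kinases and the decarboxylase rose with TAA and fell in recovery. Mvk, which phosphorylates mevalonate, was at 4.56 ± 0.481 (SD, n = 3) in control livers, 11.6 ± 0.625 in TAA livers and 3.93 ± 0.419 in recovery livers. Its log2 difference with TAA was 1.34 (SE 0.11, adjusted p = 6.21e-05). Pmvk, the next kinase, rose by 1.51 (SE 0.20, adjusted p = 5.49e-04), and Mvd, which makes isopentenyl diphosphate, rose by 1.24 (SE 0.14, adjusted p = 2.30e-04). Acat2, the thiolase that starts the chain, was above all control libraries in TAA livers at a log2 difference of 0.93 (SE 0.21, adjusted p = 0.00660), under the fold change of 2. It was called without TAA 3 (1.10), without control 1 (1.07), with FPKM as deposited (1.57) and after quantile normalization (1.45).

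Late in the pathway the directions divided. Nsdhl, a C4-demethylation dehydrogenase, was at 6.67 ± 0.435 in control livers, 22.4 ± 5.40 in TAA livers and 6.41 ± 0.946 in recovery livers, a TAA difference of 1.71 on the log2 scale (SE 0.17, adjusted p = 1.39e-04). Dhcr7, which reduces 7-dehydrocholesterol, rose by 1.55 (SE 0.25, adjusted p = 0.00157), and Sc5d, the C5-desaturase, by 1.06 (SE 0.24, adjusted p = 0.00803). Sc5d fell under the fold change of 2 without TAA 1 (0.88), TAA 2 (0.95) or control 2 (0.98).

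Tm7sf2, a C14 sterol reductase, had 58.9, 52.6 and 49.8 in control livers, 24.6, 18.9 and 18.1 in TAA livers, and 53.1, 38.2 and 45.1 in recovery livers. It fell by 1.39 with TAA (SE 0.13, adjusted p = 1.23e-04) and rose by 1.14 in recovery (SE 0.16, adjusted p = 6.96e-04). Hsd17b7, a 3-keto sterol reductase, had 30.7, 34.0 and 33.7 in control livers, 17.1, 16.8 and 13.2 in TAA livers, and 27.1, 28.5 and 33.8 in recovery livers. Its TAA difference was -1.07 (SE 0.12, adjusted p = 2.38e-04), and -0.95 without TAA 3. The falls of Tm7sf2 and Hsd17b7 were -0.76 and -0.43 with FPKM as deposited and -0.99 and -0.74 after quantile normalization, past the adjusted p but under the fold change of 2. The rise of Tm7sf2 in recovery was likewise 0.58 and 0.81 under these scalings, and no longer called. Ebp, the sterol isomerase, passed the adjusted p at -0.59 (SE 0.13, adjusted p = 0.00545), a direction that turned to 0.04 with FPKM as deposited. For Tm7sf2 and Hsd17b7 all TAA libraries were below all others, as was the summed level of hepatocyte markers, whose part was not tested. That sum is of scaled FPKM, and its fall with TAA depends on the scaling. Of the 8 markers 6 passed the adjusted p lower in TAA livers, but Alb, the highest of the 8, did not (-0.48, adjusted p = 0.188).

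**Figure D3:**
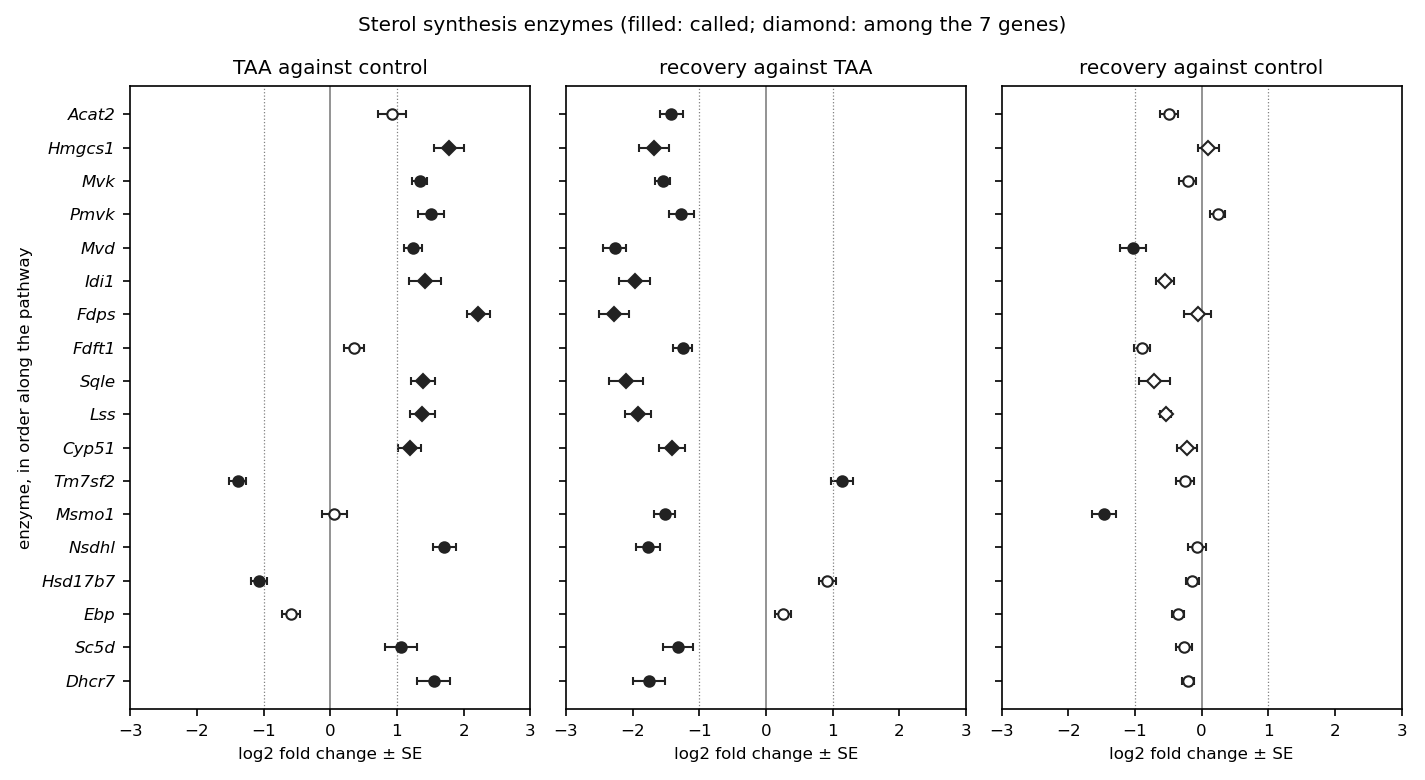
Log2 fold change ± SE (horizontal axis) of 18 enzymes in order along the pathway (rows) for the 3 comparisons, with diamonds for enzymes among the 7 genes and filled symbols for called genes. Dotted lines mark a fold change of 2, and only Tm7sf2 and Hsd17b7 are called lower in TAA livers.

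Msmo1 and Fdft1 were not called with TAA and fell from TAA to recovery. Msmo1, the C4-methyl oxidase, had 74.1, 48.2 and 52.3 in control livers, 69.0, 63.7 and 48.0 in TAA livers, and 17.7, 22.0 and 22.9 in recovery livers. TAA and control overlapped (log2 difference 0.06, SE 0.19, adjusted p = 0.823), and recovery was below both, at -1.52 against TAA (SE 0.16, adjusted p = 1.90e-04) and -1.46 against control (SE 0.18, adjusted p = 0.0193). Fdft1, squalene synthase, had 21.8, 17.5 and 17.6 in control livers, 28.8, 24.2 and 20.4 in TAA livers, and 11.5, 9.52 and 9.58 in recovery livers. Its difference was 0.36 for TAA against control (SE 0.15, adjusted p = 0.0744). Recovery differed by -1.25 from TAA (SE 0.14, adjusted p = 2.91e-04) and by -0.89 from control (SE 0.12, adjusted p = 0.0238). With FPKM as deposited, the TAA differences of Msmo1 and Fdft1 were 0.69 (adjusted p = 0.00746) and 0.99 (adjusted p = 3.02e-04). After quantile normalization they were 0.64 (adjusted p = 0.0205) and 0.70 (adjusted p = 0.00442), in the same order. Under both scalings both genes thus passed the adjusted p higher in TAA livers, but under the fold change of 2.

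Between recovery and control, Msmo1 and Mvd were the 2 called among the 12 enzymes, both lower, against 0.412% of tested genes called lower. Mvd had 2.61, 2.52 and 2.07 in control livers and 1.24, 0.875 and 1.29 in recovery livers, a log2 difference of -1.03 (SE 0.19, adjusted p = 0.0479). The call of Mvd was lost without any single library of the 6, and that of Msmo1 without recovery 2 (adjusted p = 0.0823), recovery 3 (0.0682) or control 3 (0.0620).

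From TAA to recovery the INSIG pair moved in opposite directions. Insig1, which encodes a retention protein of SREBP and itself a target of SREBP, had 104, 83.0 and 80.3 in control livers, 104, 92.6 and 68.6 in TAA livers, and 38.9, 37.0 and 42.3 in recovery livers. TAA and control overlapped, with a log2 difference of -0.02 (SE 0.17, adjusted p = 0.920) that was 0.61 with FPKM as deposited and 0.68 after quantile normalization. Insig1 was lower in recovery than in TAA livers by a log2 difference of -1.15 (SE 0.15, adjusted p = 6.05e-04) and than in control livers by -1.17 (SE 0.12, adjusted p = 0.0122). Without recovery 2 the latter had an adjusted p of 0.0628.

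Insig2, the counterpart that in liver is not driven by SREBP, had 88.9, 135 and 106 in control livers, 41.9, 52.5 and 33.3 in TAA livers, and 287, 383 and 425 in recovery livers. The 3 groups were separate. It fell by 1.37 with TAA (SE 0.20, adjusted p = 9.60e-04), a change of -0.73 with FPKM as deposited and -0.77 after quantile normalization, and rose by 3.10 from TAA to recovery (SE 0.20, adjusted p = 2.25e-05). Of all tested genes 0.582% were called higher in recovery than in control livers. Insig2 exceeded control there by 1.73 (SE 0.20, adjusted p = 0.0162), with an adjusted p of 0.0791 without recovery 2, 0.0626 without recovery 3 and 0.0625 without control 3. The ratio of Insig1 to Insig2 within a library, which does not depend on the scaling, was 1.17, 0.617 and 0.758 in control livers, 2.49, 1.76 and 2.06 in TAA livers, and 0.135, 0.0967 and 0.0994 in recovery livers. The groups did not overlap in any of the 3 comparisons, each with a two-sided exact permutation p of 0.10, the smallest that 3 against 3 libraries allow.

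**Figure D4:**
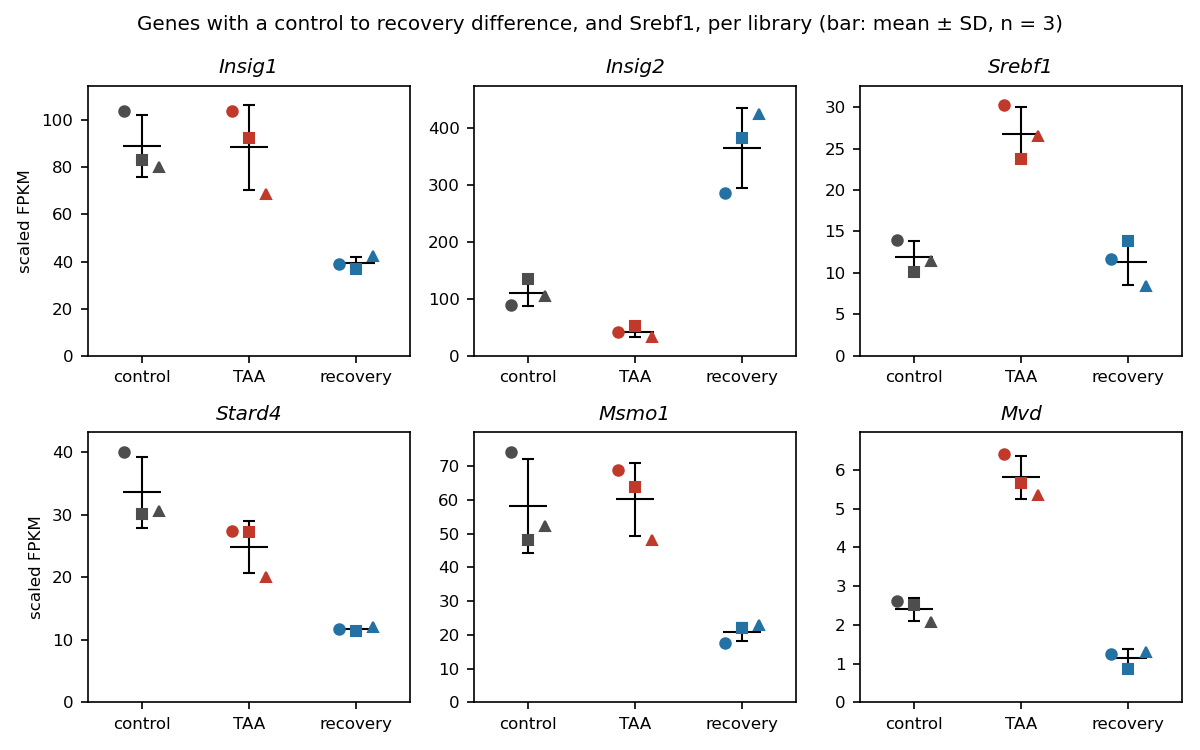
Scaled FPKM (vertical axis, starting at 0) of Insig1, Insig2, Srebf1, Stard4, Msmo1 and Mvd in each library, with mean ± SD (n = 3). Insig2 is highest in recovery livers (287 to 425) and Insig1, Stard4, Msmo1 and Mvd are lowest there.

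Of the other regulators of SREBP, Srebf1, which encodes the SREBP-1 isoforms that act mainly on fatty acid synthesis, rose by 1.17 with TAA (SE 0.14, adjusted p = 3.82e-04) and fell by 1.26 in recovery (SE 0.18, adjusted p = 9.53e-04). Its level was 14.0, 10.1 and 11.5 in control livers, 30.2, 23.7 and 26.5 in TAA livers, and 11.7, 13.9 and 8.40 in recovery livers. The ratio of Srebf2 to Srebf1 was thus 1.10 ± 0.0913 in control livers, 0.530 ± 0.0263 in TAA livers and 1.08 ± 0.326 in recovery livers (two-sided exact permutation p = 0.10, the smallest possible, for TAA against control). Scap passed the adjusted p at -0.58 with TAA (SE 0.10, adjusted p = 0.00221), but at 0.05 with FPKM as deposited the direction was lost. The proteases Mbtps1 and Mbtps2 were not called in any comparison. The TAA difference of Mbtps1 was -0.08 (adjusted p = 0.494), and 0.55 with FPKM as deposited. For Mbtps2 it was 0.24 (adjusted p = 0.138), but 0.87 with FPKM as deposited (adjusted p = 8.26e-04) and 0.20 after quantile normalization (adjusted p = 0.251).

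**Figure D5:**
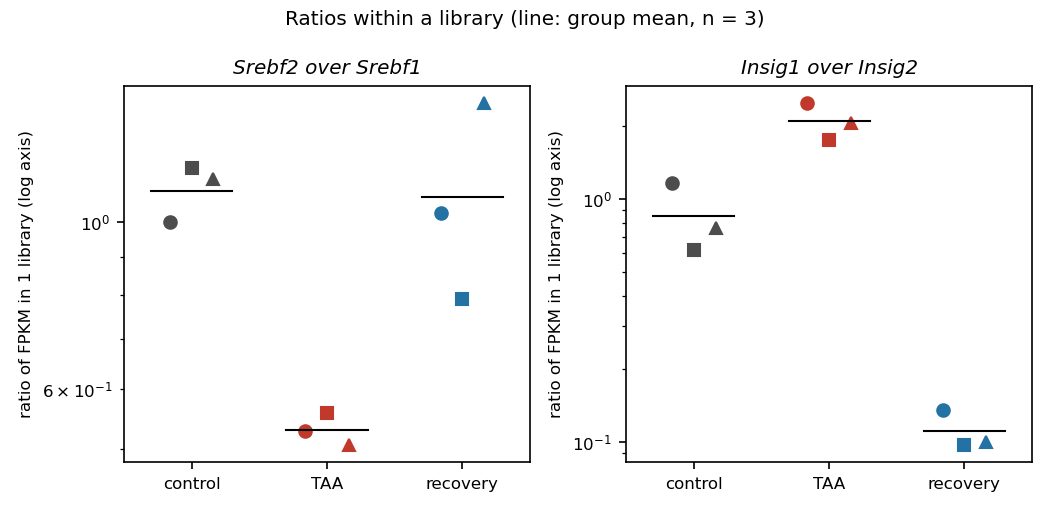
Ratio of Srebf2 to Srebf1 (left) and of Insig1 to Insig2 (right) within each library, on log axes, with lines at group means (n = 3). The first ratio is 0.505 to 0.558 in TAA livers and 0.790 to 1.44 elsewhere, and the second is lowest in recovery livers.

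Genes of sterol uptake and transport inside the cell were fixed as a list of 6. With TAA 0 were called, against 5 of 6 at an unadjusted p under 0.05 in limma and 60.0% of tested genes at that level. Npc1, a lysosomal sterol exporter, passed the adjusted p lower at -0.78 (SE 0.07, adjusted p = 1.15e-04), but not with FPKM as deposited (-0.14, adjusted p = 0.151). Scarb1, the HDL receptor, passed at -0.44, against 0.20 with FPKM as deposited and -0.01 after quantile normalization. Npc2, a lysosomal sterol carrier, was the only one of the list to pass higher, at 0.37 (SE 0.09, adjusted p = 0.0114), and was called at 1.0 with FPKM as deposited. Mylip, a ubiquitin ligase induced by LXR, and Lipa, the lysosomal lipase, did not pass, at -0.60 (adjusted p = 0.0855, and 0.03 with FPKM as deposited) and -0.22 (adjusted p = 0.0593, and 0.42 with FPKM as deposited). Stard4, a cytosolic sterol carrier induced by SREBP-2, had 40.1, 30.1 and 30.6 in control livers, 27.4, 27.3 and 20.1 in TAA livers, and 11.8, 11.5 and 12.0 in recovery livers. Its TAA difference was -0.43 (SE 0.16, adjusted p = 0.0550), and 0.20 with FPKM as deposited. From TAA to recovery it was called lower at -1.06 (SE 0.13, adjusted p = 4.14e-04), but at -0.99 without TAA 1 or without TAA 2 the call was lost. Stard4 was also the gene of the list called between recovery and control, lower by a log2 difference of -1.49 (SE 0.12, adjusted p = 0.00902).

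Genes of LXR, sterol export and esterification (11) held 3 calls with TAA, a share near the 25.0% of all tested genes called in either direction. Cyp27a1, which starts the acidic bile acid route, fell by 1.40 (SE 0.09, adjusted p = 2.07e-05) and Abcg8, part of the canalicular sterol exporter, by 1.46 (SE 0.13, adjusted p = 8.60e-05), while with FPKM as deposited these were -0.76 and -0.83, under the fold change of 2, as was Cyp27a1 after quantile normalization (-0.67). From TAA to recovery Cyp27a1 alone of the list was called, higher at 1.54 (SE 0.10, adjusted p = 2.81e-05), against 7.12% of tested genes called higher. It was 0.98 with FPKM as deposited and 0.88 after quantile normalization, no longer called. With TAA Ch25h was called higher from 0 to 0.10 in control livers and 0.197 to 0.209 in TAA livers, levels near the limit of detection, and 7 of its 15 alternatives lost the call. Abcg5, the partner of Abcg8, passed the adjusted p at -0.78 (SE 0.10, adjusted p = 4.09e-04), but not with FPKM as deposited (-0.14, adjusted p = 0.242). Abcg8 remained lower in recovery than in control at -0.86 (SE 0.15, adjusted p = 0.0444), under the fold change of 2, with 28.1, 37.2 and 29.1 in control livers against 20.0, 17.3 and 14.7. That adjusted p was 0.0538 with FPKM as deposited and reached 0.142 among the alternatives. The sterol acyltransferases Soat1 and Soat2 had TAA differences of 0.68 (adjusted p = 0.00361, and called at 1.29 with FPKM as deposited) and -0.23 (adjusted p = 0.133, and 0.40 with FPKM as deposited). Cyp7a1, the rate-limiting enzyme of bile acid synthesis, ranged from 13.3 to 55.9 within control livers, and its difference of -0.35 (SE 0.49, adjusted p = 0.570) was not detectable at that spread. The receptors Nr1h3 and Nr1h2 were at -0.61 (adjusted p = 8.19e-04) and -0.05 (adjusted p = 0.794), which became 0.02 and 0.58 with FPKM as deposited. Abca1, a cholesterol exporter, was at -0.10 (adjusted p = 0.448), but at 0.54 with FPKM as deposited, and Abcg1 passed higher at 0.59 (adjusted p = 0.00823) and was called at 1.21 with FPKM as deposited.

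Of 9 genes of non-sterol isoprenoid synthesis and use, 1 rose with TAA and fell in recovery, Fntb, a farnesyltransferase subunit, at 1.07 (SE 0.17, adjusted p = 0.00133) and -1.15 (SE 0.22, adjusted p = 0.00357). Beside this, 17.0% of all tested genes were called higher with TAA and 14.3% lower in recovery than in TAA livers. The count of 1 of 9 is not above either share. The same shares apply to the next list. Of 6 genes of fatty acid synthesis, 3 rose with TAA, Fasn by 1.76 (SE 0.21, adjusted p = 3.64e-04), Acly by 1.49 (SE 0.22, adjusted p = 9.39e-04) and Acaca by 1.15 (SE 0.15, adjusted p = 6.08e-04). In recovery Acly, Fasn and Elovl6 fell by 1.75, 1.59 and 1.58 against TAA, with adjusted p-values of 4.63e-04, 5.49e-04 and 0.00337. Acly makes the cytosolic acetyl-CoA that both sterols and fatty acids draw on.

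Clock genes were looked at because sterol synthesis in liver follows feeding and the hour of day, and the hour of collection is not given in the sources used here. Of 13 clock genes, 7 were called between recovery and control, against 0.993% of all tested genes, with Dbp at -3.21 (SE 0.42, adjusted p = 0.0216), Npas2 at 3.03 (SE 0.34, adjusted p = 0.0161) and Arntl at 2.90 (SE 0.31, adjusted p = 0.0145). Between TAA and control 5 of the 13 were called, against 25.0% of all tested genes, with Hlf at -1.33 (SE 0.18, adjusted p = 6.85e-04), Arntl at 1.29 (SE 0.26, adjusted p = 0.00463) and Npas2 at 1.25 (SE 0.30, adjusted p = 0.00946). At an unadjusted limma p under 0.05, 12 of the 13 differed between TAA and control, against 60.0% of all tested genes. The part of the hour of collection in the differences of Insig1, Insig2, Msmo1, Mvd and Stard4 was not tested. Nor was it tested for the 7 genes and the other enzymes in any of the comparisons.

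The genes outside all lists most like the 7 genes over the 9 libraries, by Pearson's r with their mean standardized log2 value, were Cyp20a1 (r = 0.990), Micu2 (0.985), Mfap3 (0.980), Ro60 (0.979) and Papss1 (0.979). Of these Papss1, which makes the sulfate donor PAPS, was called in both TAA comparisons, at 2.65 ± 0.464 in control livers, 6.74 ± 0.811 in TAA livers and 2.27 ± 0.207 in recovery livers. On deviations from group means the closest were Elovl2 (0.991), Zfp593 (0.988), Heatr5a (0.969), Actr10 (0.969) and Nxt2 (0.957). Elovl2, which elongates polyunsaturated fatty acids, thus varied with the 7 genes from mouse to mouse but moved against them with TAA, at 255 ± 14.0 in control livers and 87.9 ± 13.2 in TAA livers (log2 difference -1.55, adjusted p = 5.30e-05). These are the highest of many r values over 9 libraries and carry no test.

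Annotated genes overlap 6 of the 7 genes, and for Hmgcs1, Idi1, Lss and Cyp51 the overlapping gene is on the other strand. Whether the counting used strand is not given in the sources used here, so reads of such pairs may not be separable. For Fdps the overlapping protein-coding gene Gm43738 lies on the same strand, and its value is uncertain to that extent.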

How the data were processed

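Total RNA of 9 livers was sequenced, and only the mRNA libraries were used here. Per the labels and methods, the authors mapped reads to mm10 with HISAT2 2.2.1, counted them per gene with featureCounts 1.5.0-p3 and deposited the result as FPKM, with 1 column per mouse. The size of 1 fragment in low FPKM values gave an estimate of depth. Since the deposited FPKM are not counts, no count test was used.

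Libraries were scaled by median-of-ratios factors taken over genes above 0 in all 9. The test was that of limma 3.58.1 (R 4.3.3; lmFit, then eBayes allowing a trend), run on log2(scaled FPKM + 0.1) for the 14094 genes whose mean FPKM reached 0.1, using the 6 libraries of each comparison. The value of 0.1 understates changes of low genes. Calls needed an adjusted p (Benjamini-Hochberg) under 0.05 and a fold change of at least 2. In simulated data, 187 of 200 changed genes were recovered for TAA against control with 3 false calls among 13168 genes. Of all tested genes in the livers, 25.0% were called for this comparison. The scaling and the calls at so large a share were not tested in simulated data. Ratios were compared by exact two-sided permutation tests, with no adjustment of their p-values.

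The 7 genes and all lists were chosen with earlier results of these data known. Named were the 7 genes, the genes of the sterol and SREBP lists, up to 3 called genes of other lists with the largest changes, and the 5 genes most alike by each measure. Some genes of the pathway are not reported here. Loci matched GENCODE M21 for 92.4% of genes. Promoter windows were matched by symbol to RefSeq (GRCm38.p6). Alternatives covered pseudocount, filter, scaling, moderation, fit, block and single libraries.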

Additional observations from a re-analysis of the deposited data

How the results depend on the processing

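The counts of called genes among the 7 were 6, 6 and 0 for TAA against control, recovery against TAA and recovery against control under every alternative to pseudocount, filter, scaling, moderation, samples in the fit and single libraries. The adjusted p alone gave 1 (Lss) in the last comparison, and 0 with all 9 libraries in 1 fit, without the trend or without any single library. The number called of the 12 other enzymes between recovery and control, 2 as reported, was 1 with a pseudocount of 0.01 or of 1, with FPKM as deposited, after quantile normalization and without the trend, and 0 without a filter on low values. It was 0 to 1 when single libraries were left out.

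FPKM as deposited turned the direction of several small TAA differences: Ebp 0.04, Scap 0.05, Insig1 0.61, Mbtps1 0.55, Lipa 0.42, Scarb1 0.20, Nr1h2 0.58, Nr1h3 0.02, Abca1 0.54 and Soat2 0.40. By the same rule quantile normalization did so for Insig1 (0.68), Lipa (0.47) and Abca1 (0.37). For recovery against TAA, again by this rule, the deposited FPKM turned Ebp -0.31, Scap -0.16, Npc1 -0.03, Lipa -0.51, Nr1h2 -0.08, Nr1h3 -0.05, Abca1 -0.32, Abcg5 -0.52 and Soat2 -0.21. Quantile normalization turned Lipa (-0.57). With FPKM as deposited, 91.2% of TAA calls over all genes were higher, against 67.9% with scaling and 55.7% after quantile normalization.

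Same-numbered mice did not deviate together over all tested genes (r of deviations -0.0705 to 0.125). Such an r cannot show whether the numbers pair the samples for some of the genes. With a replicate block the counts among the 7 genes were again 6, 6 and 0, and 0 of the other enzymes was called between recovery and control. Under the block Insig1, Stard4 and Msmo1 had an adjusted p of 0.0558, 0.0518 and 0.0724 in that comparison. Lss had 0.0923 there, so that 0 of the 7 genes passed the adjusted p. The counts of the other enzymes in the other two comparisons did not change. The causes of these changes were not tested. Calls between recovery and control rest on 3 mice a group, and those of Mvd, Msmo1, Insig1 and Insig2 were each lost without at least 1 single library.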
